A study of Mus musculus with 5 samples.

Results

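Transcripts of 9 genes of mature myelin, *Mbp*, *Mog*, *Mag*, *Mobp*, *Cnp*, *Cldn11*, *Mal*, *Ugt8a* and *Opalin*, were examined in hippocampal RNA-seq of young *Hdac1* conditional knockout (cKO) mice. The genes were chosen by name, as a list of transcripts made by oligodendrocytes that have formed myelin. All 9 were found among the 23361 gene symbols of the expression tables, and all 9 were among the 12740 genes tested, those averaging 1 FPKM or more. FPKM is a fragment count scaled to transcript length and library depth, so levels of different genes can be set side by side. The 2 control mice carried floxed *Hdac1* alleles (Hdac1f/f) without Cre, and the 3 cKO mice carried the same alleles together with Nestin-Cre (Hdac1f/f, Nestin-Cre). All 5 samples were whole hippocampus at 3 months of age. By the study's methods young mice were male, and the labels name no treatment for these groups. *Nestin-Cre* is active in neural progenitors, and the study described loss of HDAC1 in neurons and astrocytes with HDAC1 still present in microglia. Oligodendrocytes were not described there, and the presence of Cre itself cannot be told apart from the loss of *Hdac1* in this design.

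Myelin is the stack of lipid-rich membrane that oligodendrocytes wrap around axons, and it speeds conduction and feeds the axon. Its transcripts are made by the mature cell after a precursor has left the cell cycle, under the transcription factors OLIG2, SOX10 and MYRF. HDAC1 and its paralogue HDAC2 are known to act in that maturation, as enzymes that remove acetyl groups from histones and other proteins. In the hippocampus, myelinated fibres lie mainly in the fimbria, the alveus and the perforant path. In bulk tissue, fewer oligodendrocytes and less RNA per oligodendrocyte cannot be told apart.

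*Hdac1* measured 8.95 and 13.1 FPKM in the controls against 1.95, 3.12 and 3.37 FPKM in cKO, so no library went against its label. The libraries summed to 565363 to 636705 FPKM. Depth, estimated from the smallest steps in low FPKM values, was about 5140000 fragments in cKO 2 and 6310000 to 6770000 in the other 4 libraries. The libraries also fall into sets that share these steps, with control 1 and cKO 1 in the first and control 2, cKO 2 and cKO 3 in the second, and differences are therefore given within the sets as well. The sets were recognised from the values and are not named in the labels.

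The myelin genes were abundant and their order was nearly fixed. *Mbp* was far above the others with a mean of 1056 FPKM over the 5 libraries, 9.04 to 11.3 times the FPKM of *Cnp* in the same library. *Cnp* followed with a mean of 103 FPKM, then *Mal* (90.1), *Mobp* (88.8), *Cldn11* (45.5), *Mag* (36.3), *Opalin* (23.1), *Ugt8a* (14.3) and *Mog* (12.4). *Mal* was above *Mobp* in 3 of the 5 libraries, and these neighbours did not differ beyond their spread. The FPKM ranges also overlapped for *Cnp* and *Mal*, for *Cldn11* and *Mag* and for *Ugt8a* and *Mog*, although the first of each pair was higher in all 5 libraries. The other neighbours had ranges apart from each other.

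**Figure D1:**
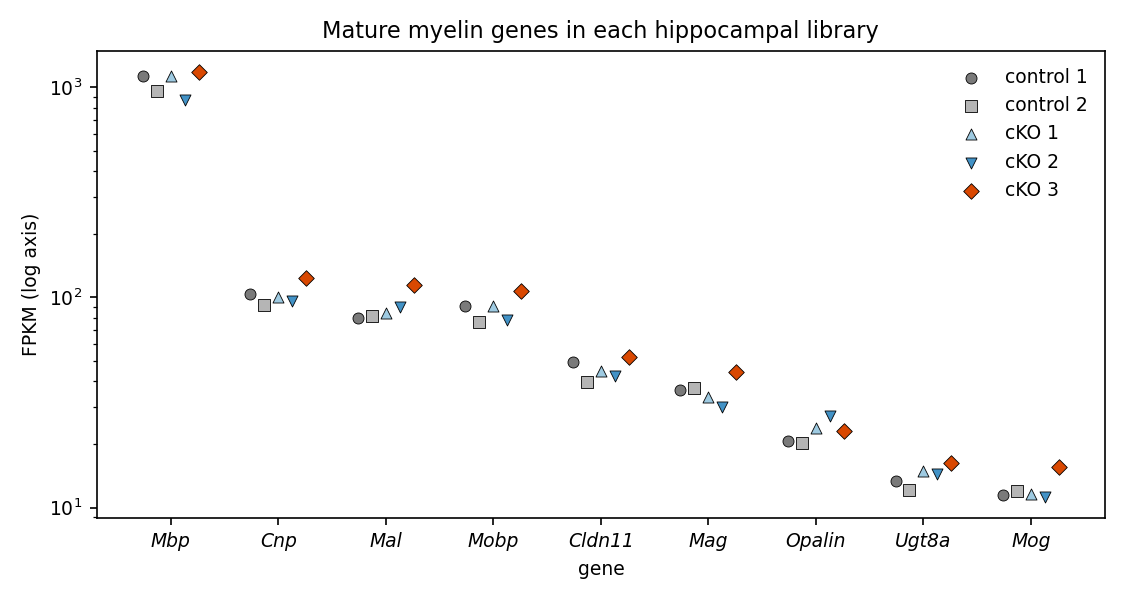
FPKM (log axis) of the 9 mature myelin genes, ordered by mean level, with 1 point per library. Grey points are the 2 controls, blue triangles are cKO 1 and cKO 2, and orange diamonds are cKO 3, which is the highest library for 8 genes and not for *Opalin*.

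None of the 9 genes differed between genotypes beyond the spread between libraries after correction, and their summed levels overlapped. The sum over the 9 genes came to 1542 and 1326 FPKM for the controls, and to 1540, 1262 and 1679 FPKM for cKO 1, cKO 2 and cKO 3. The cKO libraries thus held both the lowest and the highest sum, but most of each sum was *Mbp* alone (872 FPKM in cKO 2 and 1182 FPKM in cKO 3). Gene by gene, control 2 was the lowest library for 5 of the 9 members and cKO 2 for 3. Of the 9 genes 8 had a log2 fold change above 0 on the log2(FPKM + 1) scale, against 53.7% of all tested genes, and the median over the members was 0.12 beside a median of 0.015 over all tested genes. The number of members above 0 was 5 of 9 without cKO 3 and also without control 2, and 6 of 9 after rescaling to a common total, beside 37.4% of all tested genes. The member median was 0.0089 without cKO 3, 0.040 without control 2 and 0.056 after rescaling to a common total, and 0.16 to 0.21 without any one of the other 3 libraries. An adjusted p under 0.05 was reached by 0 of the 9 genes in limma, where 0.00785% of all tested genes reached it. The study's own threshold, a fold change of at least 1.5 with an unadjusted p under 0.05, was reached by 0 of the 9, against 0.659% of all tested genes. An unadjusted limma p under 0.05 was reached by 1 of the 9 (*Opalin*, higher in cKO), against 4.36% of all tested genes in either direction and 2.37% in that direction. Every cKO library lay above both controls for 3 of the 9 genes (*Opalin*, *Ugt8a* and *Mal*), against 11.0% of all tested genes. The 95% intervals of limma leave room for changes of either sign in 8 genes, and their outer bounds run from a 0.760-fold level of *Mag* to a 1.47-fold level of *Mal*.

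The basic proteins of compact myelin overlapped between the groups. *Mbp* encodes myelin basic protein, which holds the cytoplasmic faces of the membrane together. It lies on chromosome 18 from 82644538 to 82755029 (mm9, plus strand) with 16 annotated transcripts. *Mbp* measured 1136 and 955 FPKM in the controls against 1135, 872 and 1182 FPKM in cKO. Control 1 and cKO 1 were almost the same, cKO 2 was the lowest and cKO 3 the highest, so the control values lay inside the cKO range. The control mean was 1046 ± 128 FPKM (SD, n = 2) and the cKO mean 1063 ± 167 FPKM (SD, n = 3). The difference on the log2 scale was 0.017 (SE 0.16, limma adjusted p = 0.991), which turned to -0.050 after rescaling to a common total and to -0.040 with quantile normalization. *Mobp* encodes another basic protein of the same cytoplasmic line and lies on chromosome 9 from 120058860 to 120090602 (plus strand). It measured 91.3 and 76.8 FPKM in the controls against 90.9, 78.2 and 106.9 FPKM in cKO. Control 1 and cKO 1 again lay together, control 2 lay with cKO 2, and only cKO 3 stood above both controls. The fitted log2 change came to 0.12 (SE 0.14, adjusted p = 0.974), and it was 0.0089 without cKO 3, -0.0015 without control 2 and 0.056 after rescaling to a common total.

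*Mal* and *Cldn11* encode 4-pass membrane proteins. MAL is a proteolipid of lipid rafts that takes part in sorting proteins to the myelin membrane, and *Mal* lies on chromosome 2 from 127458962 to 127482431 (minus strand). It measured 79.9 and 81.3 FPKM in the controls against 84.5, 89.9 and 115 FPKM in cKO. The groups did not overlap, but cKO 1 was near the controls and cKO 3 far above the other 4 libraries. The fitted log2 change came to 0.24 (SE 0.14, adjusted p = 0.955), and it was 0.11 without cKO 3. *Cldn11* encodes the claudin of the tight junctions that seal the myelin layers, and lies on chromosome 3 from 31048868 to 31063246 (plus strand). It measured 49.5 and 39.7 FPKM in the controls against 44.5, 42.1 and 51.9 FPKM in cKO. The controls spanned nearly the whole range, and the fitted log2 change came to 0.052 (SE 0.13, adjusted p = 0.989), which turned to -0.014 after rescaling to a common total.

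*Cnp*, *Mag* and *Mog* encode proteins of the non-compact or outer parts of the sheath. CNP is an enzyme that keeps cytoplasmic channels in myelin open, and *Cnp* lies on chromosome 11 from 100436218 to 100453043 (plus strand). It measured 103.5 and 92.0 FPKM in the controls against 100.7, 96.5 and 124 FPKM in cKO. Only cKO 3 left the control range, and the fitted difference was 0.12 (SE 0.13, adjusted p = 0.966). It was 0.014 without cKO 3, 0.040 without control 2 and 0.058 after rescaling to a common total. Of its 3639 exonic nt 154 overlap *Dnajc7* on the opposite strand. MAG is the adhesion molecule of the membrane facing the axon, and *Mag* lies on chromosome 7 from 31684202 to 31699851 (minus strand). It measured 36.1 and 37.2 FPKM in the controls against 33.6, 30.3 and 44.1 FPKM in cKO. The controls differed little, whereas the cKO libraries lay on both sides of them, and the fitted log2 change came to -0.043 (SE 0.15, adjusted p = 0.989), or 0.070 without cKO 2 and -0.19 without cKO 3. MOG sits on the outermost layer and is a known target of autoimmunity, and *Mog* lies on chromosome 17 from 37147691 to 37160343 (minus strand). It measured 11.4 and 11.96 FPKM in the controls against 11.6, 11.3 and 15.6 FPKM in cKO. Here 4 libraries lay within 1 FPKM of each other and cKO 3 stood apart, and the log2 fold change of 0.11 (SE 0.15, adjusted p = 0.974) became -0.030 without cKO 3.

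The remaining members, *Ugt8a* and *Opalin*, showed the most even separation of the groups. *Ugt8a* encodes the enzyme that adds galactose to ceramide and so makes galactosylceramide, the typical lipid of myelin, and lies on chromosome 3 from 125568277 to 125641468 (minus strand). It measured 13.4 and 12.1 FPKM in the controls against 14.9, 14.5 and 16.4 FPKM in cKO. Every cKO library was above both controls, and the gap between the groups was smaller than the range within either group. The fitted log2 change came to 0.24 (SE 0.11). It had an unadjusted limma p = 0.0600, an adjusted p = 0.955 and an exact permutation p = 0.10 (two-sided). *Opalin* encodes a membrane glycoprotein specific to oligodendrocytes and lies on chromosome 19 from 41136964 to 41151603 (minus strand). It measured 20.7 and 20.4 FPKM in the controls against 23.8, 27.3 and 23.3 FPKM in cKO. The controls were almost equal and all cKO libraries were higher, averaging 20.6 ± 0.245 FPKM (SD, n = 2) in control and 24.8 ± 2.16 FPKM (SD, n = 3) in cKO. The fitted log2 change came to 0.25 (SE 0.11, 95% interval 0.0058 to 0.50). It had an unadjusted limma p = 0.0460, an adjusted p = 0.955 and an exact permutation p = 0.10 (two-sided). With 2 mice against 3 there are 10 ways to split the libraries, so 0.10 is the smallest p that the exact test can give. Leaving out any single library raised the unadjusted limma p of *Opalin* to between 0.0529 and 0.143, and without cKO 1 the member under 0.05 was *Mal* (0.0360). The values of *Opalin* correspond to about 247 to 296 fragments per library, with a counting error near 6.36%, and those of *Mog* to as few as 98.7 fragments, with a counting error near 10.1%.

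**Figure D2:**
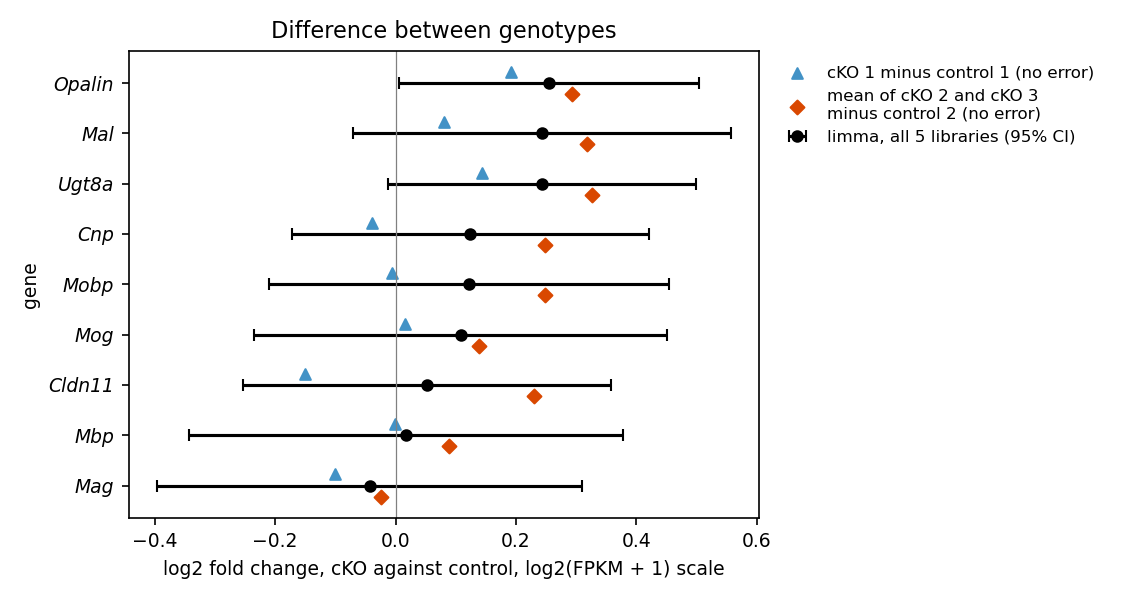
Log2 fold change, cKO against control, of each gene on the log2(FPKM + 1) scale. Black points with bars are limma estimates with 95% intervals over all 5 libraries, blue triangles the difference between cKO 1 and control 1, and orange diamonds the mean of cKO 2 and cKO 3 minus control 2. Only the interval of *Opalin* (0.0058 to 0.50) lies above 0, and the diamonds lie to the right of the triangles for all 9 genes.

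The difference between genotypes was also read within each set of libraries, and a difference between the sets was not tested. Within the first set (cKO 1 against control 1) the median difference over the 9 genes was -0.0011, with 5 genes lower and 4 higher, from -0.15 for *Cldn11* to 0.19 for *Opalin*. Within the second set (mean of cKO 2 and cKO 3 against control 2) the median was 0.25, from -0.025 for *Mag* to 0.33 for *Ugt8a*, and 8 of 9 genes were higher. This median rested on cKO 3, since cKO 3 alone against control 2 gave 0.38 with all 9 genes higher, and cKO 2 alone gave 0.067 with *Mbp* (-0.13), *Mog* (-0.076) and *Mag* (-0.29) lower. Medians over all tested genes were 0.0081 and -0.00076 in the same sets. Each set has a single control, so these differences have no p-value. *Opalin*, *Ugt8a* and *Mal* were higher in cKO in both sets (0.19 and 0.29, 0.14 and 0.33, and 0.080 and 0.32). With the set as a block, 2 of the 9 genes were under an unadjusted limma p of 0.05 (*Opalin*, 0.0286, and *Ugt8a*, 0.0356), against 9.34% of all tested genes, and the adjusted p was 0.497 and 0.498.

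How tightly the genes moved together was described from the deviation of each gene, in log2(FPKM + 1), from its own mean over the 5 libraries. With 5 libraries no correlation across samples is given. In cKO 3 all 9 genes were above their own mean, by 0.018 (*Opalin*) to 0.36 (*Mal*), with a mean deviation of 0.23. In control 2, 8 of 9 were below it, down to -0.22 (*Ugt8a*), and only *Mag* was above (0.047). The other libraries were mixed. In cKO 2, 6 genes were below and 3 above, from -0.27 for *Mbp* to 0.24 for *Opalin*, the widest spread of any library. Control 1 had 5 above and 4 below, and cKO 1 had 4 above and 5 below. cKO 3 was the highest library for 8 of the 9 genes, whereas 18.9% of all tested genes had their highest value there.

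**Figure D3:**
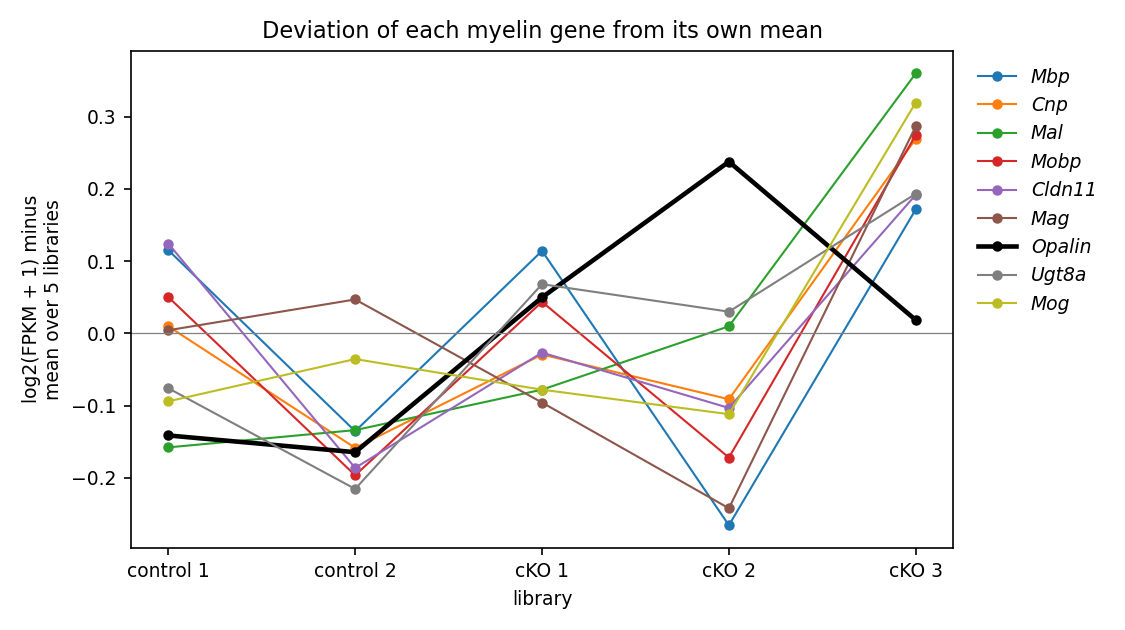
Deviation of each gene from its own mean over the 5 libraries, in log2(FPKM + 1), by library. Lines only link the points of one gene and do not mark an order, and the thick black line is *Opalin*. The genes lie together and above 0 in cKO 3, while in cKO 2 they spread from -0.27 (*Mbp*) to 0.24 (*Opalin*).

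The deviation shared by all genes of a library, that is the mean deviation per library, accounted for 60.0% of the summed squared deviations of the 9 genes. This share fell to 20.4% when cKO 3 was left out, and lay between 56.2% and 73.6% when any other library was left out, so the common movement rested on cKO 3. The spread of the ratio between members showed the same. Over all 5 libraries the SD of the log2 ratio had a median of 0.15 over the 36 pairs of members, below the median SD of a single member (0.18). Without cKO 3 the ratio had a median SD of 0.15 and a single member 0.13, so ratios between members were then no steadier than the members themselves. The tightest pair was *Mobp* and *Cnp*, whose ratio stayed between 0.810 and 0.903 in the 5 libraries (SD 0.061 on the log2 scale), followed by *Cnp* and *Cldn11* (0.071) and *Mobp* and *Cldn11* (0.074). *Mog* and *Mal* were close as well (0.087).

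*Opalin* was the member farthest from the rest. The root mean square difference between its deviations and the mean of the other 8 was 0.20, against 0.031 for *Cnp*, the nearest, and 0.074 to 0.13 for the other 7. The median ratio SD was 0.24 for the 8 pairs with *Opalin* and 0.13 for the 28 pairs without it. The *Mag* to *Opalin* ratio ranged from 1.11 to 1.89 and the *Mbp* to *Opalin* ratio from 32.0 to 54.8, both lowest in cKO 2. Without *Opalin* the shared part of the variation was 73.5%, an alternative chosen after seeing the data. cKO 2 was also the library with the most RNA of the choroid plexus, the epithelium beside the fimbria, whose 10 marker genes summed to 606 FPKM there against 6.64 to 167 FPKM in the other 4 libraries, nearly all of it *Ttr*. The part of this in the values of the myelin genes was not tested.

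The members varied more between libraries than most genes of their level. Among the 5842 tested genes with a mean at or above that of *Mog*, the median SD over the 5 libraries was 0.13, and 76.8% were below the member median of 0.18. The SD of single members ran from 0.15 (*Ugt8a*) to 0.21 (*Mal*), and the highest library was 1.31 (*Cldn11*) to 1.46 (*Mag*) times the lowest.

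By the rule fixed for likeness (smallest root mean square difference from the mean deviation of the members, over the 5 libraries, among 9182 other genes averaging 5 FPKM or more), the nearest genes were *Selenbp1* (0.025), *Wwc1* (0.027), *Pfn4* (0.030), *Deb1* (0.032), *Hsd17b10* (0.037), *Irak2* (0.037), *Mdp1* (0.039), *Stt3a* (0.040), *Sh3glb1* (0.040) and *Zfp512* (0.044). None of these 10 belonged to any of the gene lists examined here. *Tspan2*, a tetraspanin of oligodendrocytes, came at rank 23 (0.052). The median over all 9182 genes was 0.17, and over 27 other myelin genes 0.15. A gene with no variation at all would stand at 0.12.

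Other genes of the mature oligodendrocyte were described in the same way. Their shared part of the variation was 24.0%, against 60.0% for the 9 members, and the SD of their log2 ratios had a median of 0.25, above the median SD of a single gene (0.18). The shared part was 48.6% for 12 microglial and 50.003% for 10 endothelial genes, and since the lists differ in size these shares are descriptions with no test. Of 37 oligodendrocyte genes listed, 35 were tested, 24 higher and 11 lower in cKO, where 53.7% of all tested genes were higher, with a median log2 fold change of 0.11. Without cKO 3 the count was 20 of 35 and the median 0.029, and after rescaling to a common total they were 22 of 35 and 0.060. An unadjusted limma p under 0.05 was reached by 3 of 35, all higher, against 2.37% of all tested genes in that direction, and an adjusted p under 0.05 by 0. These were *Evi2a* (0.32, adjusted p = 0.955), *Apod*, a lipid carrier (0.40), and *Car2*, the carbonic anhydrase of oligodendrocytes (0.24). *Evi2a* read 20.3 FPKM in each control against 24.6, 24.6 and 27.5 FPKM in cKO 1, cKO 2 and cKO 3. Among abundant members of this list *Plekhb1* differed by -0.017 and *Qdpr* by 0.14. The mean deviation of the 35 genes was 0.20 in cKO 3 and between -0.060 and -0.040 in the other 4 libraries.

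**Figure D4:**
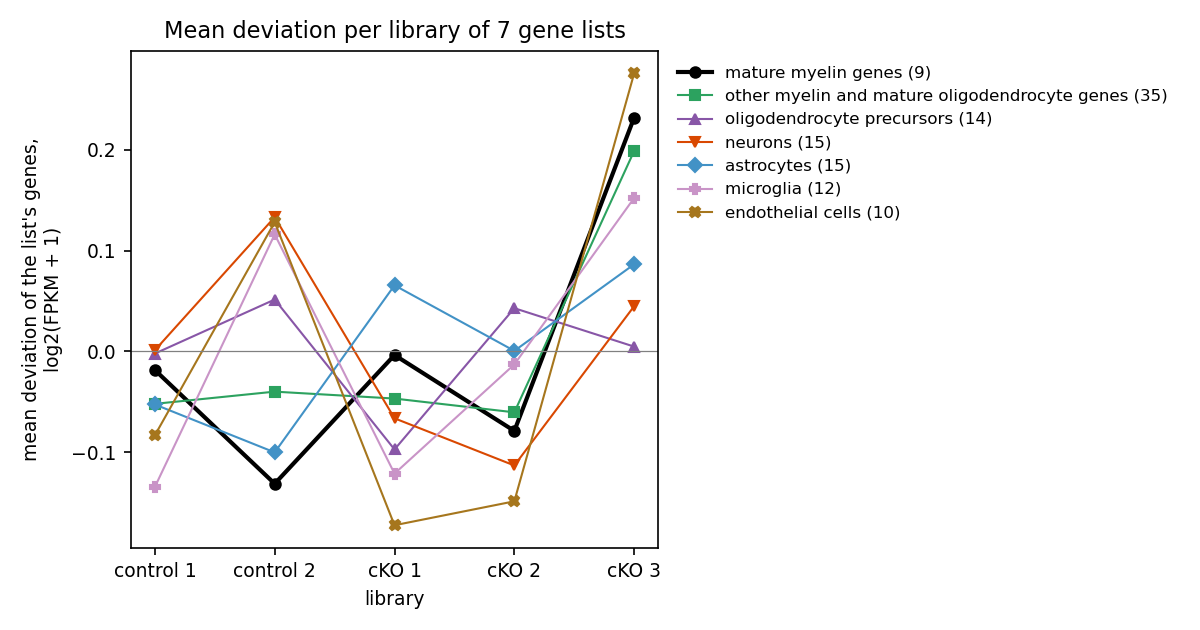
Mean deviation from each gene's own mean over the 5 libraries, in log2(FPKM + 1), for 7 gene lists with the number of tested genes in brackets. Lines only link the points of one list. The 9 myelin genes and the 35 other oligodendrocyte genes stand at 0.23 and 0.20 in cKO 3, where endothelial and microglial genes are also at their highest and the 14 precursor genes are at 0.0048.

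Lipid synthesis for myelin held genes on both sides of 0, where 53.7% of all tested genes were higher in cKO. Of 12 tested genes of galactolipids and very long chain lipids, 10 were higher and 2 lower, with a median of 0.091. This median was 0.044 after rescaling to a common total and 0.035 with replicate number as a block. The 2 lower ones were those with an unadjusted limma p under 0.05, *Gal3st1* (-0.30, adjusted p = 0.955) and *Arsa* (-0.28, adjusted p = 0.955), where 4.36% of all tested genes were under 0.05. GAL3ST1 adds sulphate to the galactosylceramide made by UGT8A, and ARSA removes it again. *Gal3st1* measured 6.37 and 5.72 FPKM in the controls against 4.96, 4.74 and 4.48 FPKM in cKO, and *Arsa* 6.87 and 7.22 against 5.82, 5.58 and 5.501 FPKM. Both had all cKO libraries below both controls, as did 9.41% of all tested genes. *Sptlc1* and *Elovl1* of the same list had all of them above, as *Ugt8a* did, against 11.0% of all tested genes. The abundant *Cers2*, *Degs1* and *Smpd1* differed by 0.022, 0.17 and 0.046, and after rescaling to a common total *Cers2* and *Smpd1* turned to -0.042 and -0.020. Of 21 tested genes of cholesterol synthesis, the other main lipid of myelin, 11 were higher and 10 lower with a median of 0.0048, or -0.060 after rescaling to a common total. *Idi1*, 1 of these 21, had an unadjusted limma p under 0.05 (0.27, adjusted p = 0.955), against 4.36% of all tested genes. *Hmgcs1*, *Sc4mol* and *Fdps*, the most abundant, differed by 0.24, 0.26 and -0.029.

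Genes of earlier stages of the lineage were compared in the same libraries. Of 14 tested precursor genes 6 were higher and 8 lower (median -0.051, or -0.11 after rescaling to a common total), and 0 had an unadjusted limma p under 0.05. *Pdgfra*, the growth factor receptor of the precursor, measured 9.41 and 13.7 FPKM in the controls against 10.4, 14.5 and 14.7 FPKM in cKO (0.18). *Tmem100* and *Olfm2* differed by 0.040 (-0.022 after rescaling to a common total) and -0.28. The summed precursor level came to 75.9 and 84.2 FPKM for the controls, and to 70.6, 84.0 and 79.7 FPKM for cKO, so cKO 3 lay inside the range of the other libraries. Of 11 tested genes of newly formed oligodendrocytes 7 were higher (median 0.030, or -0.025 after rescaling to a common total), and *Bcas1* (0.32) and *Enpp6* (0.46) were higher, each with an unadjusted limma p under 0.05 (adjusted p = 0.955 for both), against 2.37% of all tested genes in that direction. *Bcas1*, a myelin-associated protein of early myelinating cells, measured 41.5 and 47.5 FPKM in the controls against 55.6, 50.7 and 61.0 FPKM in cKO. *Enpp6* was low, with 0.750 and 1.17 FPKM against 1.57, 1.32 and 2.26 FPKM. *Fyn* and *Sirt2* differed by -0.023 and -0.080.

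Of 11 tested transcription factors of the lineage 6 were higher and 5 lower (median 0.049, or -0.011 after rescaling to a common total), and 0 had an unadjusted limma p under 0.05. *Olig1* measured 64.3 and 38.7 FPKM in the controls against 55.0, 32.1 and 41.5 FPKM in cKO, so it was high in control 1 and cKO 1, the first set of libraries. *Sox8* and *Zeb2* differed by -0.12 and 0.14. Of 9 tested inhibitors of oligodendrocyte differentiation 5 were higher and 4 lower, with a median of 0.022, or -0.041 after rescaling to a common total. Those with an unadjusted limma p under 0.05 were *Lingo1* (-0.41), a receptor of neurons and oligodendrocytes that restrains myelination, and *Apcdd1* (0.36), with an adjusted p of 0.955 for both and a share of 4.36% over all tested genes. *Apcdd1* encodes an inhibitor of Wnt signalling, a pathway that itself restrains differentiation, so the name of the list does not describe this gene. *Id2* differed by 0.025, or -0.041 after rescaling to a common total, and *Id4* by 0.12.

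Other components of the dissection were compared over the same libraries. Of all tested genes 53.7% were higher in cKO, or 37.4% after rescaling to a common total. An unadjusted limma p under 0.05 was reached by 4.36% of them. Genes of large axons and nodes of Ranvier, which myelin surrounds, were lower in 10 of 12. The median was -0.073, or -0.14 after rescaling to a common total. *Nefm*, 1 of the 12, had an unadjusted limma p under 0.05 (-0.38, adjusted p = 0.955), against 4.36% of all tested genes. *Nefl*, *Cntn1* and *Cntnap1* differed by -0.013, 0.077 and -0.28. Their summed level came to 538 and 589 FPKM for the controls, and to 544, 530 and 571 FPKM for cKO. Of 4 tested genes that also mark the Schwann cell lineage (*Egr2*, *Pmp22*, *Pou3f1* and *Sox2*) 3 were lower, and *Pmp22*, *Pou3f1* and *Sox2* differed by -0.13, -0.23 and -0.15. Neuron markers were lower in 14 of 15 (median -0.11). The median was -0.18 after rescaling to a common total and -0.18 with replicate number as a block. *Stmn2*, 1 of the 15, had an unadjusted limma p under 0.05 (-0.24, adjusted p = 0.955). The abundant *Snap25*, *Slc17a7* and *Camk2a* differed by -0.064, -0.16 and -0.069. Astrocyte markers were higher in 10 of 15 (median 0.057, or -0.0093 after rescaling to a common total), with *Aqp4* at 0.78 and *Gfap* at 0.43, while *Slc1a2*, *Aldoc* and *Glul* differed by 0.20, -0.041 and -0.043. Microglia markers were higher in 7 of 12 (median 0.026, or -0.037 after rescaling to a common total). Endothelial markers were lower in 6 of 10 (median -0.098, or -0.16 after rescaling to a common total and -0.21 with replicate number as a block). Among markers of thalamus and cortex, which border the hippocampus, 9 of 12 were lower (median -0.083, or -0.15 after rescaling to a common total). Of these 12, 3 had an unadjusted limma p under 0.05, against 4.36% of all tested genes, *Tshz2* (-0.96), *Slc17a6* (-0.62) and *Cux2* (-0.33). In none of these lists did a gene pass an adjusted p of 0.05, and the smallest was 0.175 for *Aqp4*.

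Some of these lists moved with the myelin genes in cKO 3. The mean deviation there was 0.28 for 10 endothelial genes and 0.15 for 12 microglial genes, the highest of any library for each, and 0.086 for 15 astrocyte genes. The 3 most abundant endothelial genes were not highest in cKO 3, whereas most of the less abundant ones were. *Cldn5* read 28.3 FPKM there against 32.4 in control 1. *Ly6c1* read 25.5 and *Egfl7* 24.0 FPKM there against 27.2 and 27.1 in control 2. Endothelial and microglial genes were also high in control 2 (0.13 and 0.12), where the myelin genes were lowest. Neuron genes were at 0.045 in cKO 3 and were highest in control 2 (0.13). Summed over all their markers, microglia stood at 389 FPKM in cKO 3 and 320 to 382 FPKM in the other libraries, and endothelial cells at 127 FPKM in cKO 3 and 98.5 to 116 FPKM in the others. The part of tissue composition in the high myelin values of cKO 3 was not tested.

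The promoters of the members were read for 3 short motifs in the window from 250 bases before to 50 bases after the annotated start. RefSeq promoters (GRCm38.p6) were found for 8 of the 9 genes, all but *Mbp*, as 10 windows, of which *Mag* has 3 that partly overlap. The motif of MYRF, the factor that switches on myelin genes, was searched as CTGGCAC or CTGGTAC on both strands. It was present in 4 of the 8 genes (*Mag*, *Cnp*, *Mog* and *Opalin*), and 8.10% of all genes with a promoter, or 7.10% of 32851 promoter windows, hold it. A SOX motif, ACAAAG or ACAATG on both strands, was present in 4 of the 8 (*Mag*, *Mobp*, *Cnp* and *Opalin*), against 31.7% of all genes. A GC box, GGGCGG on both strands, was present in 3 of the 8 (*Cldn11*, *Ugt8a* and *Cnp*), against 38.2% of all genes. The 3 motifs do not overlap each other within the member promoters printed here. The 4 promoters with the MYRF letters are shown 5′ to 3′ on the strand of the gene, with those letters in capitals, because they include *Cnp*, the member nearest to the rest, and *Opalin*, the member farthest from it. They are chr7:30914814-30915113 (minus strand) for *Mag*, chr11:100574689-100574988 (plus strand) for *Cnp*, chr17:37023349-37023648 (minus strand) for *Mog* and chr19:41077064-41077363 (minus strand) for *Opalin*. Counting the first transcribed base as 0, the capitals begin at position -68 in *Mag*, -81 in *Cnp*, -83 in *Mog* and 36 in *Opalin*. They read on the opposite strand in *Mog* and *Opalin*. The position in *Mag* depends on the annotated start, and another of its windows, not printed, holds the same letters at -9. In all, 5 of the 10 windows hold the MYRF letters. A match of letters is a description and does not show binding.
Mag: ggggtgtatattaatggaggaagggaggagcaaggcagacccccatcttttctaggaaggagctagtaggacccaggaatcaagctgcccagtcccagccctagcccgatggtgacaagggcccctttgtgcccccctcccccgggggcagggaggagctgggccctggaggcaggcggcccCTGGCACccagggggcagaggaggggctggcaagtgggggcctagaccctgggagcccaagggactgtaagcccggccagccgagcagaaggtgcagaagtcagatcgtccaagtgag
Cnp: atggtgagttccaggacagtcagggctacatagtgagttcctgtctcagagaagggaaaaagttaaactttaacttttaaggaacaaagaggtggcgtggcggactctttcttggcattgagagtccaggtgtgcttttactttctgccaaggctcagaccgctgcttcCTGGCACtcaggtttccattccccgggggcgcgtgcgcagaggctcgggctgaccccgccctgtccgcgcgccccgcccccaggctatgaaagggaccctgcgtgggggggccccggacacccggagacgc
Mog: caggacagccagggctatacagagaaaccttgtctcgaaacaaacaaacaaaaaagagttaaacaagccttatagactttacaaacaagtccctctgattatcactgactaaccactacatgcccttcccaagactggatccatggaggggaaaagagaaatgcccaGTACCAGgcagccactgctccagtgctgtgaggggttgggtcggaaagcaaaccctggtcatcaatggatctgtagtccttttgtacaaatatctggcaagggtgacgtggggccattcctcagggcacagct
Opalin: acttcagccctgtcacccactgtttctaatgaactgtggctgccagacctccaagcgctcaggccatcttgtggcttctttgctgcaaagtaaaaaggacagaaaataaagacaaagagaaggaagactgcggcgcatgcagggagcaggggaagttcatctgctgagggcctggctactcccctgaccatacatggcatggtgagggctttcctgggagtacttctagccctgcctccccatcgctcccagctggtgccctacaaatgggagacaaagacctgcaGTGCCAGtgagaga

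In these promoters the MYRF letters lay before the start in *Mag*, *Cnp* and *Mog* and after it in *Opalin*. *Mobp*, the closest partner of *Cnp* across libraries, had 6 matches of the SOX letters and none of the MYRF letters in this window, and *Mal* had none of the 3 motifs.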

How the data were processed

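RNA-seq of hippocampus from 2 control (Hdac1f/f) and 3 *Hdac1* cKO mice was analysed. Libraries were made with an Illumina TruSeq total RNA kit, and the authors aligned reads with Tophat2 and deposited FPKM values from Cufflinks 2.0.0 (UCSC mm9 annotation), with 1 table per library. Strand use in counting is not given in the sources used here. Groups and replicate numbers came from sample titles. FPKM are not counts, so limma 3.58.1 in R 4.3.3 (lmFit, eBayes with trend) was fitted to log2(FPKM + 1) of the 12740 genes averaging 1 FPKM or more, with genotype as the only term. P-values are two-sided, and adjusted p-values are Benjamini-Hochberg values over all tested genes. Fold changes on this scale understate the change of low genes. Nothing states that the samples of a group came from separate litters, so p-values measure the spread between these samples.

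The members and the gene lists were chosen with earlier results of these data known. Named genes were the members, *Hdac1*, the 3 most abundant tested genes and all genes with an unadjusted p under 0.05 of each other list, and the 10 nearest profiles. Other genes named (*Egr2*, *Tspan2*, *Dnajc7*, *Sptlc1*, *Elovl1*, *Olig2*, *Sox10*, *Myrf*) were chosen after their values were seen. For the choroid plexus only *Ttr* is named, with the list as a sum. Some genes that the rule names are not reported here. Sets of libraries were linked where over 10% of ratios between low genes (mean under 0.3 FPKM) fell in one window of 0.05 log2 units. Depth was read from those steps, using genes that have 1 transcript of at least 1000 nt, is approximate, and counting errors derived from it cover fragments only, at the longest annotated transcript. Coordinates are GENCODE vM1 on NCBIM37, the build of mm9, 1-based. No other coding transcript matched a member at 95% identity over 200 nt (BLAST 2.17.0). Alternatives were a pseudocount of 0.1, no FPKM filter, a minimum mean of 5 FPKM, a common total, median-ratio size factors, quantile normalization, no variance trend, blocks for replicate number or set, and leaving out each library.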

Additional observations from a re-analysis of the deposited data

How the results depend on the processing

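No member passed an adjusted limma p of 0.05 under any of the 14 alternatives, where adjusted p-values ran from 0.365 to 0.9999. *Cnp*, *Mal*, *Ugt8a* and *Opalin* kept their direction in all of them, and the signs of the others, all within 0.11 of 0 when they turned, did not. *Mbp* was at -0.050 with a common total, -0.040 with quantile normalization and -0.066 with the replicate block, and *Cldn11* at -0.014 with a common total and -0.034 with the replicate block. *Mog* was at -0.030 with the replicate block. Leaving out single libraries gave ranges of -0.11 to 0.15 for *Mbp*, -0.030 to 0.19 for *Mog*, -0.19 to 0.070 for *Mag*, -0.0015 to 0.25 for *Mobp* and -0.10 to 0.21 for *Cldn11*. *Mbp*, *Mobp* and *Cldn11* were lowest without control 2, *Mog* and *Mag* without cKO 3. The number of members with an unadjusted p under 0.05 was 0 with a common total, median-ratio size factors, quantile normalization or no variance trend, 2 with the set block, and 0 to 1 without single libraries. The median over the members was 0.056 with a common total, where all tested genes had a median of -0.047, 0.0089 with the replicate block, 0.0089 (without cKO 3) to 0.21 (without control 1) without single libraries, and 0.38 for cKO 3 alone against control 2. The shared part of the variation was 20.4% to 73.6% without single libraries. Genes past the study's threshold numbered 84, against 43 with a minimum mean of 5 FPKM, 142 with a pseudocount of 0.1, 133 with the replicate block, and 92 (without cKO 2) to 231 (without control 2) without single libraries. The cause of these changes was not tested.

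The replicate numbers of the titles are not said to mark a shared litter or day. After the mean of each group was subtracted, same-numbered libraries deviated together across the 12740 genes (r = 0.402 for number 1 and 0.269 for number 2). With 2 controls, the deviations of control 2 are those of control 1 with the sign turned. These 2 values are therefore not separate observations. Each such pair also lies inside a set, so number and set cannot be told apart. In the replicate block cKO 3 has no partner and the estimates rest on the other 4 libraries. That fit leaves 1 residual degree of freedom per gene, so its p-values lean on the variance shared across genes. There 14 genes passed an adjusted limma p of 0.05 and 1430 an unadjusted one, with *Opalin* at 0.30 (adjusted p = 0.365). The share without *Opalin* and the differences within sets or for single libraries of a set were computed after seeing the data.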
